A study of Mus musculus with 6 samples.

Results

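Krüppel-like factors are DNA-binding proteins that carry zinc fingers at their C-terminal end and recognise GC-rich sites and the related CACCC box, which they share with the Sp factors. Their N-terminal parts differ, and through them some members recruit histone acetyltransferases and others recruit repressor complexes. In the myeloid lineage Klf2 and Klf4 are known for effects on inflammatory gene expression, and Klf6 as a factor that cooperates with NF-kappaB. The genes described here were 9 members of the family, chosen by name from the 24411 genes in the count tables: Klf2, Klf3, Klf4, Klf6, Klf7, Klf9, Klf10, Klf11 and Klf13. All 9 passed the filter on low counts that left 10133 genes to test.

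The values come from RNA-seq of primary microglia (PM) of 3-day-old ICR mice, whose brains were pooled and grown as mixed glial cultures before the microglia were shaken off. All libraries were from cells that received GSK-J4 (10 μM), an inhibitor of the H3K27 demethylase JMJD3, for 4 h. In 3 libraries this was the only agent, and in the other 3 the cells also received LPS (10 ng/ml), the bacterial TLR4 ligand. The study describes the libraries of a treatment as biological replicates made from independent RNA. They come from cultures of pooled brains, so p-values measure the spread between these samples and not between mice. Untreated and LPS-only PM were not analysed here, so each change given below is the difference with LPS in the presence of GSK-J4.

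Counts on genes came to 2597505 to 3472716 fragments a library. Levels are given as CPM, counts scaled to a common library total with TMM factors, and 3 counts in a library corresponded to 0.670 to 1.23 CPM. Counts of Rn45s, the precursor of ribosomal RNA, made up 25.6% ± 5.88 (SD, n = 3) in the GSK-J4 libraries and 47.1% ± 1.15 when LPS was added, and the TMM factors were 1.06 to 1.31 and 0.821 to 0.832, respectively. On a principal component that held 16.3% of the variance, replicate 3 of both groups lay apart from replicates 1 and 2. The microglial markers summed to between 3137 and 3282 CPM in GSK-J4 alone and between 2506 and 2628 CPM with LPS + GSK-J4, over 11 genes. In bulk RNA, fewer cells of a type and less RNA per cell cannot be told apart.

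A gene is said to have risen or fallen where the adjusted p of edgeR's quasi-likelihood test (Benjamini-Hochberg over all genes tested) was at most 0.01. By this rule 4 of the 9 Klf genes rose in LPS + GSK-J4, namely Klf2, Klf7, Klf6 and Klf10. Over all genes tested, 8.42% rose. None of the 9 fell (0 genes by edgeR and 0 by DESeq2, with 2 lower at an unadjusted p under 0.05), against 5.46% of all genes. Klf2 and Klf7 also passed the study's fold threshold, a log2 fold change of at least 1.5, which 2.95% of all genes passed in this direction. The median log2 fold change was 0.52 over the 9 genes and -0.00058 over all genes tested.

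For Klf2, Klf6 and Klf4 the stretch from 250 to 31 bases before the RefSeq start site is printed below in mm10 (GRCm38.p6) on the gene's own strand, because these are the members with the largest increase, the highest level and the closest relation to Klf2. RefSeq promoter entries matched 8 of the 9 genes, Klf10 being the one without, and the 3 stretches printed lie outside annotated exons, as those of Klf3, Klf7 and Klf11 do not. Capitals mark the motifs found on either strand, and a CCGCCC box on the opposite strand appears as its reverse complement, GGGCGG. The Klf-type box CACCC was searched for, as were the Sp-type box CCGCCC and the cyclic AMP response element TGACGTCA. The search also took in the CArG box, the MEF2 site and the TATA box in the form TATAAA. For NF-kappaB only a narrow form of the site was searched for, and other forms of that site were not counted. Overlapping matches were counted separately.
Klf2, chr8:72318812-72319031, plus strand: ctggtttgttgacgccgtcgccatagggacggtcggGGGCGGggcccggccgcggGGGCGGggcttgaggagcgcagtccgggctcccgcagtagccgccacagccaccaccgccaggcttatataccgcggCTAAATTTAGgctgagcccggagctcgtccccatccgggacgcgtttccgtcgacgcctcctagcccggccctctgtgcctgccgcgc
Klf6, chr13:5861239-5861458, plus strand: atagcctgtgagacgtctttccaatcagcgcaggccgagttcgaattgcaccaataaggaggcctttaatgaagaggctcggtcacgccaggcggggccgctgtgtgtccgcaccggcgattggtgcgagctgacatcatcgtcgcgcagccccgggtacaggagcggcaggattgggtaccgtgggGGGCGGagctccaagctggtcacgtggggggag
Klf4, chr4:55532506-55532725, minus strand: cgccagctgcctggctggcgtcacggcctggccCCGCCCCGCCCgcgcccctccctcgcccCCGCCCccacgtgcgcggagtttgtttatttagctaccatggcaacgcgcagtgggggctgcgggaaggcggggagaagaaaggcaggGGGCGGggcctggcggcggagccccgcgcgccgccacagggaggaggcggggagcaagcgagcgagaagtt

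The Klf2 stretch holds 2 CCGCCC motifs and 1 MEF2 site, which lies 118 to 109 bases before the start. A MEF2 site was found in 0.421% of the 32817 RefSeq promoters over the same 220 bases, and in Klf2 alone among the 8 Klf promoters. CCGCCC was found in 28.5% of all promoters, and it occurred 1 time in the Klf6 stretch and 4 times in the Klf4 stretch. Klf3 held 6 matches to CCGCCC and 5 to CACCC, Klf11 held 3 to CCGCCC, Klf7 held 1 to CCGCCC and 3 to CACCC, Klf13 held 1 to CCGCCC, and Klf9 held 1 to CACCC, a box found in 47.8% of all promoters. No Klf promoter held TGACGTCA, the narrow form of the NF-kappaB site, the CArG box or TATAAA. These were found in 1.14%, 1.17%, 1.3% and 9.96% of all promoters, respectively. Whether the Klf promoters hold other forms of the NF-kappaB site was not tested. The window ends 31 bases before the start, so a TATA box or other motif nearer to it was not searched for. The matches are letters in a window, and binding was not measured. The GC content of the Klf stretches was between 60.0 and 79.1%, against a median of 51.8% over all promoters.

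Klf2, known for keeping endothelial cells and T cells quiescent and for restraining myeloid activation, showed the largest change of the family. The gene lies on chromosome 8 at 72319033-72321656. Its level was 2.82, 2.23 and 4.01 CPM in replicates 1, 2 and 3 of GSK-J4 and 18.2, 20.9 and 39.8 CPM with LPS + GSK-J4. Every LPS + GSK-J4 library was above every GSK-J4 library, and LPS + GSK-J4 replicate 3 was the highest by a wide margin. The mean rose from 3.02 ± 0.91 to 26.3 ± 11.8 CPM (SD, n = 3), with a log2 fold change of 3.16 with an SE of 0.35, or 8.93-fold (edgeR adjusted p = 5.80e-06). The GSK-J4 values rest on 10 to 12 fragments a library and those of LPS + GSK-J4 on 47 to 97. Without LPS + GSK-J4 replicate 3 the log2 fold change was 2.74.

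Klf7, best known for its part in axon growth of neurons, rose from a low level as well. The gene lies on chromosome 1 at 64029447-64122282. It stood at 5.40, 7.59 and 6.57 CPM in GSK-J4 alone and at 24.1, 24.7 and 30.4 CPM with LPS + GSK-J4. The libraries within each group lay close together, and the groups did not overlap. The mean rose from 6.52 ± 1.10 to 26.4 ± 3.49 CPM (SD, n = 3), with a log2 fold change of 2.01 with an SE of 0.23 (edgeR adjusted p = 7.36e-06). Of the 5 neuronal markers below, the 2 with enough counts to test, Tubb3 and Map2, rose too. Rbfox3, Snap25 and Syt1 had 5, 1 and 7 fragments in total in GSK-J4 alone. With LPS + GSK-J4 they had 2, 8 and 1, so they show no common direction. The part of the neuronal markers in the Klf7 result was not tested.

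Klf6, an early-response member that is widely expressed in myeloid cells, was the most abundant Klf transcript in every library. The gene lies on chromosome 13 at 5861482-5870394. It stood at 261, 287 and 248 CPM in GSK-J4 alone and at 649, 622 and 434 CPM with LPS + GSK-J4. The groups did not overlap, and LPS + GSK-J4 replicate 3, the highest library for Klf2 and Klf7, was the lowest of its group for Klf6. The mean rose from 265 ± 19.8 to 568 ± 117 CPM (SD, n = 3), with a log2 fold change of 1.10 with an SE of 0.14 (edgeR adjusted p = 3.06e-05).

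Klf10, a TGF-beta inducible early gene whose product represses through SIN3A, rose by a like amount. The gene lies on chromosome 15 at 38291463-38300706. It stood at 43.7, 35.5 and 29.2 CPM in GSK-J4 alone and at 76.5, 86.9 and 70.7 CPM with LPS + GSK-J4, without overlap. The mean rose from 36.1 ± 7.26 to 78.0 ± 8.24 CPM (SD, n = 3), with a log2 fold change of 1.10 with an SE of 0.16 (edgeR adjusted p = 0.000118).

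**Figure D1:**
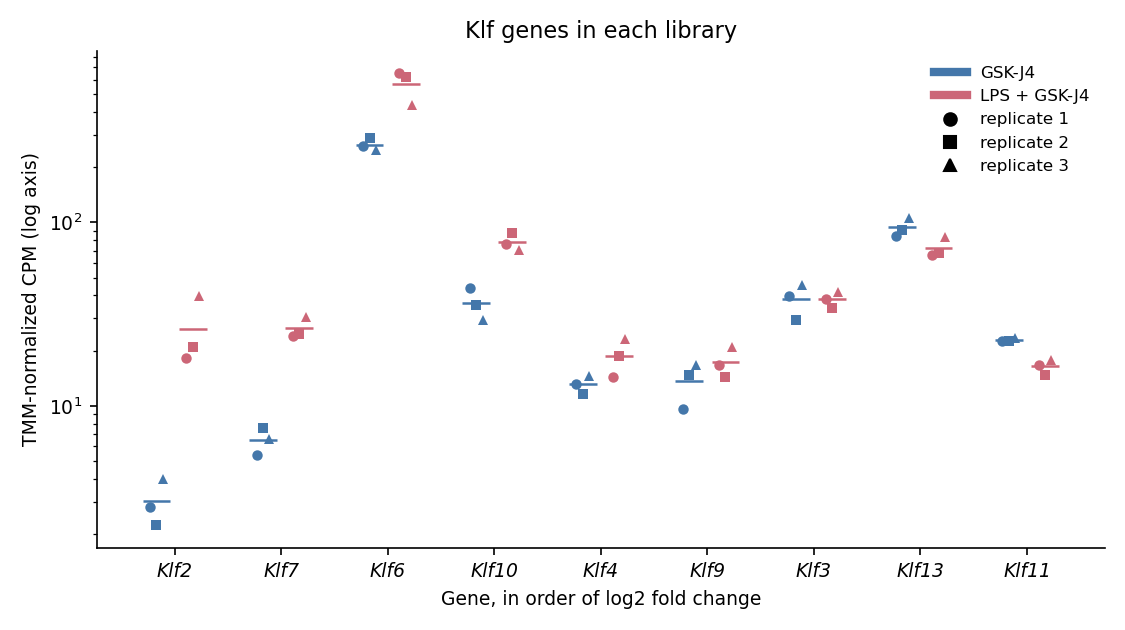
TMM-normalized CPM (log axis) of the 9 Klf genes in each of the 6 libraries, ordered by log2 fold change, with a bar at the mean of each group of 3 and a symbol for each replicate number. The groups are separate for Klf2, Klf7, Klf6 and Klf10, with LPS + GSK-J4 above, and for Klf13 and Klf11, with LPS + GSK-J4 below, and they overlap for Klf4, Klf9 and Klf3.

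The other 5 genes did not pass the test. Klf4, the reprogramming factor that is also known for its part in monocyte differentiation, stood at 13.1, 11.6 and 14.6 CPM in GSK-J4 alone and at 14.4, 18.6 and 23.0 CPM with LPS + GSK-J4, and the groups overlapped by the library pair of 14.6 and 14.4 CPM. Its log2 fold change was 0.52, with a 95% interval from 0.04 to 0.99 (edgeR adjusted p = 0.110). The log2 fold changes of Klf6 and Klf10 lay above this interval. Their own intervals, 0.80 to 1.40 and 0.75 to 1.44, overlapped it, and a difference from Klf4 was not tested.

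Klf9, which responds to glucocorticoids and thyroid hormone, stood at 9.62, 14.7 and 16.8 CPM in GSK-J4 alone and at 16.7, 14.4 and 21.0 CPM with LPS + GSK-J4. The groups overlapped, and the log2 fold change of 0.36 had an interval from -0.16 to 0.88 (edgeR adjusted p = 0.326). Klf3, a repressor that works through CtBP, stood at 39.7, 29.3 and 45.6 CPM in GSK-J4 alone and at 38.1, 34.2 and 41.9 CPM with LPS + GSK-J4. Its log2 fold change was 0.01, with an interval from -0.38 to 0.39 (edgeR adjusted p = 0.982), so a change of more than 1.5 on the log2 scale lay outside the interval in either direction.

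Klf11 and Klf13, both of which bind SIN3A, were the members with negative values. Klf11 stood at 22.5, 22.6 and 23.3 CPM in GSK-J4 alone and at 16.7, 14.8 and 17.7 CPM with LPS + GSK-J4. Its log2 fold change was -0.48, with an interval from -0.87 to -0.08 (edgeR adjusted p = 0.0766). Klf13, known as an activator of Ccl5 in T cells, stood at 84.7, 91.3 and 106 CPM in GSK-J4 alone and at 66.0, 67.9 and 83.4 CPM with LPS + GSK-J4. Its log2 fold change was -0.37, with an interval from -0.67 to -0.07 (edgeR adjusted p = 0.0696). For both genes every LPS + GSK-J4 library was below every GSK-J4 library. This held for 2 of the 9 Klf genes and for 18.4% of all genes, while the opposite order held for 4 of the 9 and for 19.8% of all genes.

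**Figure D2:**
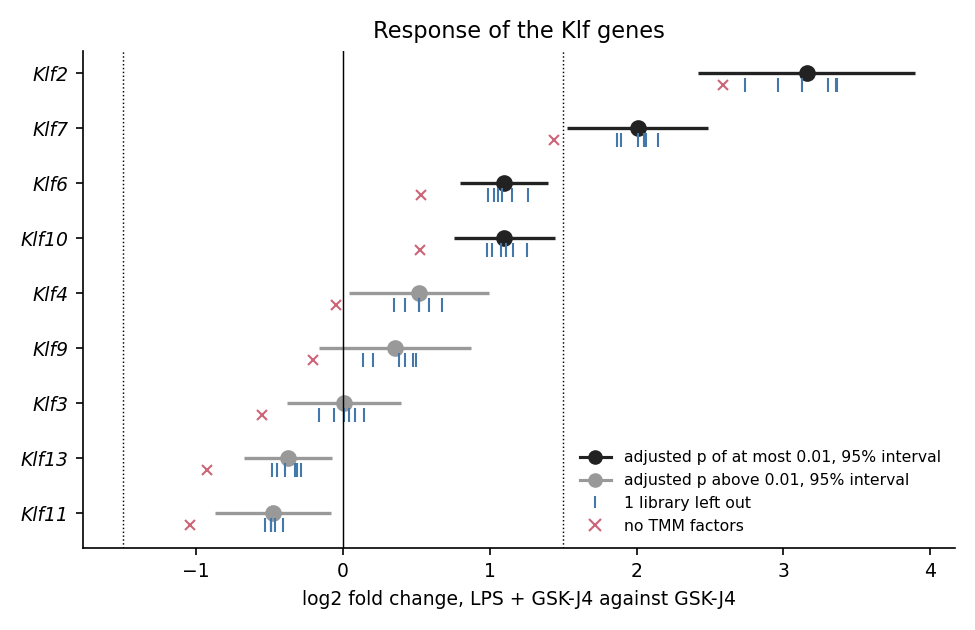
The log2 fold change of each Klf gene, LPS + GSK-J4 against GSK-J4, with its 95% interval (line), black where the adjusted p was at most 0.01 and grey where it was above, and dotted lines at the study's threshold of 1.5. Blue ticks are the values with 1 library left out and red crosses those without TMM factors; the crosses lie to the left of the circles for all 9 genes, and for Klf4, Klf9 and Klf3 on the other side of 0.

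The calls depended on the scaling. Without TMM factors, the median log2 fold change of all genes moved to -0.57, and the values of the 9 genes moved with it. In that fit 3.38% of all genes rose and 33.2% fell. Klf2 (2.59) and Klf7 (1.44) then still rose, Klf6 (0.53, adjusted p = 0.0121) and Klf10 (0.52, adjusted p = 0.0291) no longer passed the test, and Klf11 (-1.04) and Klf13 (-0.93) fell. Relative to that median, the values were 3.16 for Klf2, 2.00 for Klf7, 1.10 for Klf6, 1.09 for Klf10, 0.52 for Klf4, 0.36 for Klf9, 0.02 for Klf3, -0.48 for Klf11 and -0.36 for Klf13, close to those with TMM factors. With the libraries numbered 3 left out of both groups, a setting chosen after seeing the data, the same 4 genes rose and 0 fell.

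Differences in exon length change the order of the genes, so levels were compared between genes only as CPM per kilobase of annotated exon. In GSK-J4, Klf6 led with 62.8 ± 4.69 (SD, n = 3) and was followed by Klf13 with 14.1 ± 1.61, Klf10 with 9.43 ± 1.89, Klf3 with 7.09 ± 1.54, Klf11 with 5.58 ± 0.11, Klf4 with 4.33 ± 0.49, Klf9 with 3.06 ± 0.82, Klf2 with 1.64 ± 0.49 and Klf7 with 0.81 ± 0.14. The libraries of Klf10 and Klf3, of Klf3 and Klf11, and of Klf9 and Klf2 overlapped, so the order within these pairs is uncertain. Differences between genes were not tested.

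In LPS + GSK-J4, Klf6 again led with 135 ± 27.7 CPM per kilobase. Klf10 came next with 20.4 ± 2.15, then Klf2 with 14.3 ± 6.38 and Klf13 with 10.9 ± 1.43. Klf2 thus stood in position 3 of the 9, compared with position 8 in GSK-J4, but its libraries overlapped those of Klf10 and Klf13. Klf3 with 7.06 ± 0.72, Klf4 with 6.16 ± 1.43, Klf11 with 4.01 ± 0.36, Klf9 with 3.87 ± 0.74 and Klf7 with 3.28 ± 0.43 followed. Klf3 and Klf4 overlapped, and so did each pair among Klf11, Klf9 and Klf7.

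Klf6 made up 57.7% ± 3.37 (SD, n = 3) of the summed level per kilobase of the 9 genes in GSK-J4 alone and 65.3% ± 8.14 with LPS + GSK-J4. The share of Klf2 was 1.51% ± 0.47 and 7.21% ± 3.96, and that of Klf13 was 13.0% ± 1.54 and 5.39% ± 1.24. The summed level per kilobase was 109 ± 1.95 in GSK-J4 alone and 204 ± 18.2 with LPS + GSK-J4, and Klf6 went from 62.8 to 135 within it.

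**Figure D3:**
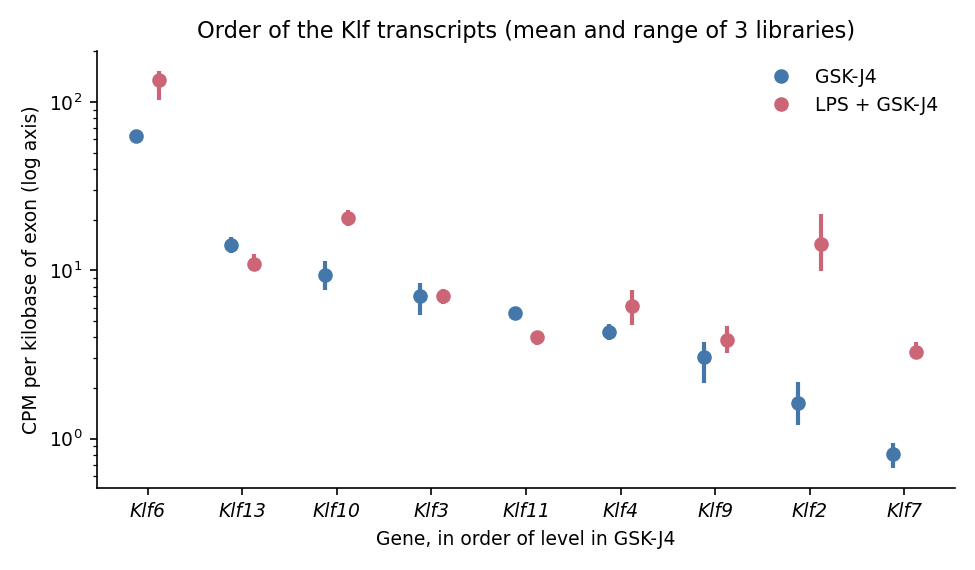
CPM per kilobase of annotated exon (log axis) of the 9 Klf genes, with the mean (circle) and the range (line) of the 3 libraries of each group, in the order of the level in GSK-J4. Klf6 is at the top in both groups, and Klf2 moves from 1.64 to 14.3, a level whose range meets those of Klf10 and Klf13.

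The genes whose course over the 6 libraries was most like that of a Klf gene were found by the Euclidean distance of log2(CPM + 1) values, each gene centred on its own mean, among 7164 genes with a mean of at least 10 CPM. Nearest to Klf2 were Phlda1 (distance 0.41), the orphan nuclear receptor Nr4a1 (0.54) and the zinc-finger gene Hivep3 (0.62). Phlda1 stood at 13.4, 13.8 and 17.5 CPM in GSK-J4 alone and at 87.8, 101 and 145 CPM with LPS + GSK-J4, with replicate 3 highest in both groups as for Klf2. Nearest to Klf6 were the membrane protein gene Gpm6b (0.16), the interferon-related developmental regulator Ifrd1 (0.17) and cyclin D1, Ccnd1 (0.18). Ifrd1 stood at 195, 196 and 157 CPM and at 429, 423 and 295 CPM, so that replicate 3 was the lowest of both groups, as for Klf6. Nearest to Klf4 were the Wnt pathway gene Dvl1 (0.11), Mybbp1a (0.12) and Atp8b2 (0.17). These distances describe 6 libraries in which the groups differ in many genes, and a small distance says no more than that the levels moved alike.

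Of the 17 other genes of the Sp/Klf family, 8 had enough counts to test, 2 rose and 0 fell (0 lower at an unadjusted p under 0.05 and 0 by DESeq2). The shares of all genes were 8.42% and 5.46%. Klf5, a growth-related member of epithelial cells, rose from 2.73 ± 0.44 to 9.34 ± 2.47 CPM (SD, n = 3), with a log2 fold change of 1.77 (edgeR adjusted p = 0.00106). Sp9, a developmental Sp factor, rose from 1.99 ± 0.57 to 6.79 ± 0.72 CPM, with a log2 fold change of 1.80 (edgeR adjusted p = 0.00196). Both are low, with 31 and 22 fragments over the 3 GSK-J4 libraries and a lowest count of 8 and 6. A filter of at least 10 counts in every library therefore left both untested. The count was 1 without GSK-J4 replicate 1, without GSK-J4 replicate 2, without LPS + GSK-J4 replicate 2 and with DESeq2. Sp1, Sp2, Sp3, Sp4, Sp8 and Klf16 did not pass, and the log2 fold changes of the broadly expressed Sp1 and Sp3 were -0.22 and -0.35. Without TMM factors, where 33.2% of all genes fell, 1 rose and 2 fell, and the list median of 0.20 became -0.36.

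Transcripts of the proteins through which Klf factors act showed no called change, where 8.42% of all genes rose and 5.46% fell. All 15 listed corepressors and coactivators were tested, among them Sin3a, Ctbp1, Ctbp2, Crebbp and Ep300, and 0 rose and 0 fell by edgeR or DESeq2, with 1 higher and 0 lower at an unadjusted p under 0.05. The 1 gene was the histone deacetylase Hdac2, with a log2 fold change of 0.52 (edgeR adjusted p = 0.0522). Sin3a, the partner of Klf10, Klf11 and Klf13, was at 33.2 CPM in GSK-J4 alone and 33.4 CPM with LPS + GSK-J4, and Ctbp1, a partner of Klf3, was at 109 and 102 CPM. The values of the list ran from -0.16 to 0.58 on the log2 scale. Without LPS + GSK-J4 replicate 3 the count of genes that rose was 1, as it was with a block for replicate number. Without TMM factors 5 of the 15 fell, near the 33.2% of all genes that fell in that fit.

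Of 7 ubiquitin ligases described as acting on Klf proteins, 4 fell and 0 rose (0 higher at an unadjusted p under 0.05 and 0 by DESeq2). Among all genes 5.46% fell and 8.42% rose. The median log2 fold change of the ligases was -1.03. Fbxo32, the muscle-atrophy F-box protein atrogin, stood at 199, 219 and 185 CPM in GSK-J4 alone and at 27.2, 30.4 and 31.2 CPM with LPS + GSK-J4. All 3 LPS + GSK-J4 libraries were thus far below those of GSK-J4. The log2 fold change was -2.77 with an SE of 0.14 (edgeR adjusted p = 5.16e-10). Wwp1, a HECT-type ligase that acts on Klf2 and Klf5 proteins, fell from 83.4 ± 10.2 to 35.7 ± 7.78 CPM (SD, n = 3), with a log2 fold change of -1.22. Vhl, the substrate receptor best known for hypoxia-inducible factor, fell from 57.5 ± 7.85 to 25.2 ± 3.91 CPM (-1.18), and Fbxw7, an F-box receptor of growth regulators, from 29.7 ± 3.48 to 14.4 ± 3.61 CPM (-1.03). Smurf1, Itch and Siah1a did not pass, with values of 0.12, -0.31 and -0.27. These are transcript levels, and neither ligase activity nor Klf protein was measured.

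The kinase arm that runs from MEK5 and ERK5 to the MEF2 factors is described as an activator of Klf2 and Klf4 transcription. Of its 8 genes 7 were tested, 3 fell and 0 rose (0 higher at an unadjusted p under 0.05 and 0 by DESeq2). Among all genes 5.46% fell and 8.42% rose. Mef2d fell from 126 ± 23.7 to 69.5 ± 21.7 CPM (SD, n = 3), with a log2 fold change of -0.85, Mapk7, which encodes ERK5, from 40.8 ± 3.16 to 24.5 ± 6.23 CPM (-0.74), and the upstream kinase Map3k2 from 176 ± 23.7 to 106 ± 18.6 CPM (-0.73). Map2k5, which encodes MEK5, Mef2c, Map3k3 and Mef2a did not pass, with values of 0.05, -0.02, -0.37 and -0.38. Klf2, described as a target of this arm, rose in the same libraries. The count of 3 was 0 without LPS + GSK-J4 replicate 2, and 1 without GSK-J4 replicate 2, without GSK-J4 replicate 3 or without LPS + GSK-J4 replicate 1. It was 5 without TMM factors, where 33.2% of all genes fell.

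Of 13 genes of the TGF-beta arm around Klf10 and Klf11, all tested, 1 fell and 0 rose. At an unadjusted p under 0.05, 4 were lower and 1 was higher, and DESeq2 called 0 higher. The 1 and 0 calls are near the shares of all genes, of which 5.46% fell and 8.42% rose. Smad3, the receptor-activated transducer, fell from 28.4 ± 5.41 to 15.0 ± 2.75 CPM, with a log2 fold change of -0.91 (edgeR adjusted p = 0.00498). The inhibitory Smad7, a TGF-beta target like Klf10, had a value of -0.61 and did not pass (edgeR adjusted p = 0.0158). The count of genes that fell was 0 without GSK-J4 replicate 3 or without LPS + GSK-J4 replicate 2, and 2 without GSK-J4 replicate 1, without LPS + GSK-J4 replicate 3 or with DESeq2. It was 3 without the filter on low counts and 8 without TMM factors, where 33.2% of all genes fell. With a block for replicate number in the fit, 4 fell and 1 rose, where 10.0% and 12.4% of all genes did.

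Of the 9 genes of glucocorticoid and thyroid hormone action, the signals to which Klf9 responds, 7 were tested. Of these 2 fell and 0 rose (2 higher at an unadjusted p under 0.05, 0 by DESeq2), against 5.46% and 8.42% of all genes. The glucocorticoid-responsive clock gene Per1 fell from 80.3 ± 7.88 to 31.3 ± 6.01 CPM (SD, n = 3), with a log2 fold change of -1.36 (edgeR adjusted p = 1.37e-05). Tsc22d3, the glucocorticoid-induced leucine zipper, fell from 27.4 ± 2.30 to 15.7 ± 1.48 CPM, with a log2 fold change of -0.81 (edgeR adjusted p = 0.00485). The count was 1 with DESeq2 and when any single library other than LPS + GSK-J4 replicate 3 was left out, and 2 genes rose without the filter on low counts. The median of the list was 0.11, and -0.47 without TMM factors.

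Of 15 genes described as targets of KLF2, KLF4 or KLF6, 10 were tested, 2 rose and 2 fell, against 8.42% and 5.46% of all genes. The cell-cycle genes Ccnd1 (9.24 ± 0.90 to 20.5 ± 5.68 CPM, with a log2 fold change of 1.15) and Cdkn1a, the inhibitor p21 (113 ± 10.3 to 229 ± 33.3 CPM, 1.03), rose. Cdkn1b, the inhibitor p27, fell from 37.3 ± 0.25 to 23.1 ± 3.65 CPM, with a log2 fold change of -0.69, and S1pr1, a sphingosine phosphate receptor known as a KLF2 target in T cells, from 153 ± 10.1 to 105 ± 5.95 CPM, with a log2 fold change of -0.54. The endothelial KLF2 target Nos3 had too few counts to test. The count of genes that rose was 1 without GSK-J4 replicate 1 or 3 or without LPS + GSK-J4 replicate 1 or 2, and that of genes that fell was 0 without GSK-J4 replicate 2 or 3 or without LPS + GSK-J4 replicate 2 and 1 without GSK-J4 replicate 1 or with DESeq2. Without TMM factors, where 33.2% of all genes fell, 0 rose and 4 fell, and without the filter on low counts 4 fell. With a block for replicate number, 4 rose and 3 fell, where 12.4% and 10.0% of all genes did. With the libraries numbered 3 left out of both groups, 4 of these genes rose and 3 fell, while 1 gene of the TGF-beta arm rose and 3 fell, 3 of the other Sp/Klf genes rose and 1 cofactor rose.

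**Figure D4:**
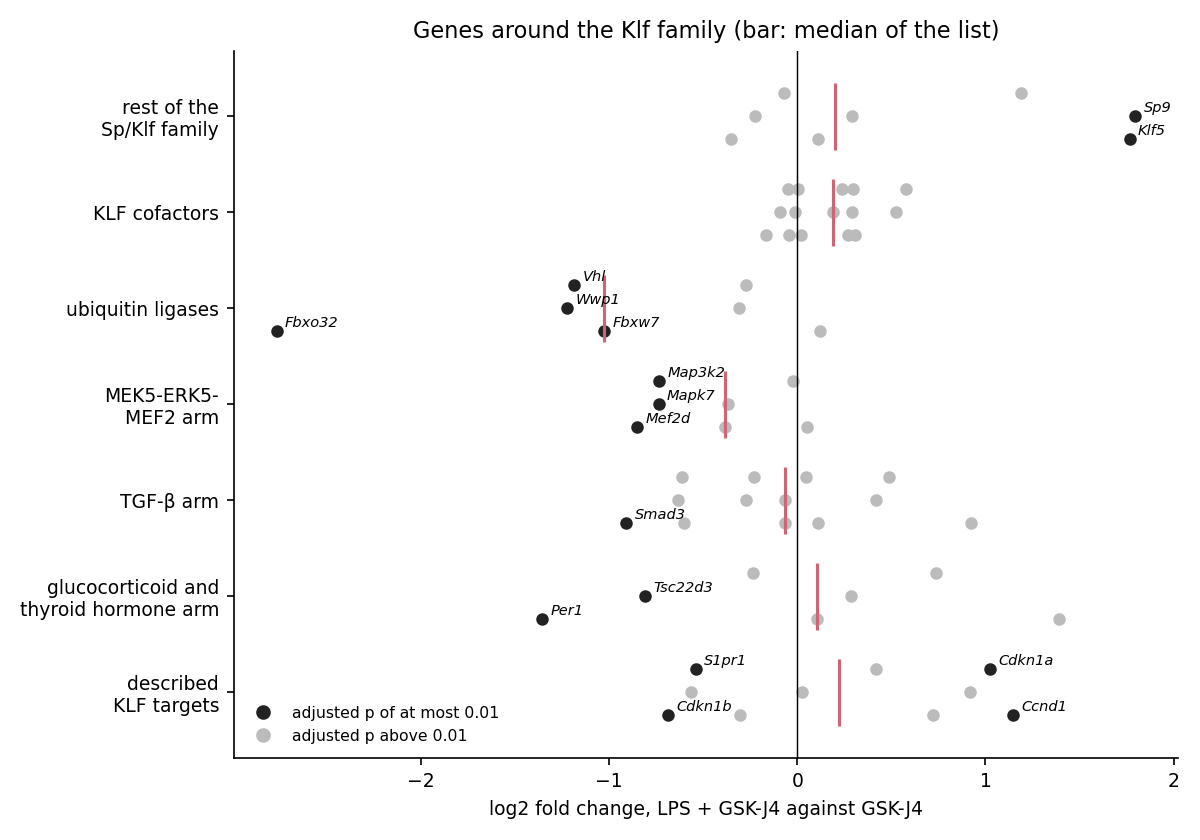
The log2 fold change, LPS + GSK-J4 against GSK-J4, of each tested gene of the 7 lists around the Klf family, black and named where the adjusted p was at most 0.01 and grey where it was above, with a red bar at the median of each list. The ubiquitin ligases have the lowest median, -1.03, with Fbxo32 at -2.77, and the cofactors have no black point.

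PM cultures can hold other cells, and several of their markers moved with the groups. For the counts below, the shares of all genes tested were 8.42% that rose and 5.46% that fell. The summed CPM of 9 astrocyte markers was 59.8 to 63.1 in GSK-J4 alone and 143 to 174 with LPS + GSK-J4, and 4 of the 8 tested rose, Gfap among them from 16.7 to 54.1 CPM. Of 9 oligodendrocyte lineage markers, summing to 153 to 183 and 267 to 298 CPM, 4 of the 7 tested rose. The 5 neuronal markers summed to 14.7 to 19.0 and 32.3 to 40.4 CPM. Both that could be tested rose by edgeR, and 1 did by DESeq2. Of 7 endothelial markers, the cell type known for high Klf2 and Klf4, 1 of the 3 tested rose, Cdh5 from 12.3 to 35.0 CPM, while the defining marker Cldn5 had 0 counts in all 6 libraries, under the floor of 3 counts given above. The sums were 34.6 to 54.0 and 53.6 to 87.9 CPM. Of 5 fibroblast markers, summing to 71.5 to 261 and 131 to 391 CPM, 0 were called (edgeR and DESeq2, with 1 at an unadjusted p under 0.05). Among the 11 microglial markers Cx3cr1 fell from 360 to 259 CPM and Csf1r from 754 to 547 CPM. By edgeR or DESeq2 0 rose, with 1 at an unadjusted p under 0.05. That gene was Sall1, at 5.13 and 11.2 CPM, with a log2 fold change of 1.08 (edgeR adjusted p = 0.0206). The other 10 microglial markers had negative values. The part of these markers in the Klf results was not tested. With Rn45s, Mir6236 and Lars2 removed before scaling, the same 4 Klf genes rose and 0 fell. Their log2 fold changes were then 3.15 for Klf2, 2.00 for Klf7, 1.10 for Klf6 and 1.09 for Klf10. What else the Rn45s share may reflect was not tested.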

How the data were processed

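RNA was depleted of rRNA and sequenced as directional paired-end libraries from 3 GSK-J4 and 3 LPS + GSK-J4 samples, grouped by the titles in the labels. Per the labels, the submitters used CASAVA 1.8.2, Trimmomatic 0.33, STAR 2.5.1 and DESeq2 with mm10. The deposited values are raw counts per gene, as STAR writes them, without normalization, in unstranded, same-strand and reverse-strand columns. The reverse-strand column was used; the same-strand column held at most 13 fragments for a Klf gene in a library. The counting annotation is not given in the sources used here. STAR counts only uniquely mapped fragments, 6987694 to 8790782 per library, of which 2597505 to 3472716 were on genes. The depth of each value is in its counts, and 3 counts were taken as the floor.

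The test was that of edgeR 4.0.16 (R 4.3.3, limma 3.58.1), with library sizes over all genes, TMM, filterByExpr (minimum count 10, minimum total 15) and the robust quasi-likelihood test without covariates, with Benjamini-Hochberg adjustment over 10133 genes and 2-sided p-values. The thresholds, an adjusted p of 0.01 and a log2 fold change of 1.5, are the study's. An exact permutation test of 3 libraries against 3 cannot give a p below 0.1. The scripts were tested on simulated counts. Positions and exon lengths are from GENCODE for mm10 and promoters from RefSeq (GRCm38.p6). Figures were drawn in Python 3.11.15 with matplotlib 3.10.9.

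The Klf genes, lists and markers were chosen with earlier results of these data known. Named were all 9 Klf genes and, of each list, the genes past both thresholds, otherwise up to 4 with the largest change among those past the adjusted p; other genes named were chosen as examples after their values were seen. The alternatives were unstranded counts, DESeq2 1.42.0 and its size factors, no TMM factors, removal of Rn45s, Mir6236 and Lars2, other count filters and thresholds, a replicate block, leaving out each library and, chosen after seeing the data, leaving out both libraries numbered 3. Untreated, LPS-only and BV-2 samples were not analysed here, and 1 gene of the lists is not reported here.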

Additional observations from a re-analysis of the deposited data

How the results depend on the processing

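The calls of Klf2, Klf6, Klf7 and Klf10 as higher held in 14 of 15 refits, the exception being the fit without TMM factors, and with each library left out the counts stayed at 4 higher and 0 lower, with 2 past the fold threshold. Without TMM factors 2 Klf genes were higher, 2 lower and 1 past both thresholds, while 3.38% of all genes were higher and 33.2% lower. The log2 fold changes of Klf3, Klf4 and Klf9 were then -0.55, -0.047 and -0.20. With an adjusted p of 0.05 and a log2 fold change of 1, 4 passed. Klf3 lay near 0, ran from -0.17 to 0.14 with 1 library left out, and changed sign with unstranded counts (-0.0041), DESeq2 size factors (-0.0015), no filter (-0.046), DESeq2 (-0.044), without GSK-J4 replicate 2 (-0.17) and without LPS + GSK-J4 replicate 3 (-0.06); the cause was not tested. The labels share replicate numbers, and deviations of same-numbered libraries correlated at -0.0087, 0.12 and 0.31. The last value, for replicate 3, was the highest between any libraries of the 2 groups. GSK-J4 replicate 1 correlated best with LPS + GSK-J4 replicate 2 (0.093), and GSK-J4 replicate 2 with LPS + GSK-J4 replicate 1 (0.25). With 3 libraries a group, these values cannot decide whether the samples were paired or shared a batch. A replicate block raised the shares of all genes called to 12.4% higher and 10.0% lower, and called 1 Klf gene lower, Klf13 (-0.38, adjusted p = 0.0059). Klf2 in GSK-J4 rests on 10 to 12 fragments a library, the least of the 9.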
